A study of Begonia x semperflorens-cultorum with 3 samples.

Results

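The subject here is a group of 76 abundant leaf transcripts of begonia (Begonia x semperflorens-cultorum, listed as Super Olympia), a bedding plant, that were at least 2-fold lower in leaves grown at low temperature. The library named LT represents low temperature, with plants kept at 15 and 5 °C and a light of 300 μmol m-2 s-1. The control library (CK) came from plants kept at 25 and 15 °C under the same light, and both are poly-A RNA of leaf. The high-light library (HL; 25 and 15 °C, 500 μmol m-2 s-1) enters below only through its own distribution of counts, because it was quantified on another assembly. Each condition had 1 library, for which 4 parallel samples were pooled, so no spread between plants was measured and no p-value exists. All intervals below are 95% intervals that cover counting error only, and a difference between LT and CK is a difference between these libraries.

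The members were taken from the 74779 assembled genes that the LT and CK files share. Expected counts (estimated read numbers per gene) were scaled for library size by the trimmed mean of M-values, abbreviated TMM. The members were chosen by those scaled counts: a gene was kept if the mean of its LT and CK scaled counts was at least 10000 and its LT count was at most 0.5 of its CK count, after adding 1 to each. The first condition was met by 171 genes, called abundant genes here, and 76 of them (44.4%) met both. Of the 18742 genes that reached 50 counts in either library, 2621 (14.0%) were at least 2-fold lower in LT. Since the drop itself chose the 76 genes, their folds are a description and nothing is read from that excess.

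The libraries held 18836786 counts in LT against 17223244 in CK. The offset between the length of a gene and its effective length was 100.1 bases in LT and 87.35 in CK, the median over genes longer than 2000 bases. Effective length divides the deposited TPM values, so the offset bears most on short genes.

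A leaf spends much of its messenger RNA on a small number of genes. In land plants these usually include nuclear genes for the small subunit of Rubisco, which fixes carbon dioxide, for the chlorophyll-binding proteins of the light-harvesting antennae, and for other chloroplast proteins. In Arabidopsis, low temperature is known to lower many photosynthesis transcripts and to raise genes of cold protection and of the red anthocyanin pigments. Which of the begonia transcripts belong to these classes is not known here: the files give numbers in place of gene names and hold no sequences, so no role is assigned to any member, markers of leaf cell types could not be read, and only 2 members are given by number.

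The 76 genes held 5.72% of all LT counts (interval 5.71 to 5.73%), against 19.6% of all CK counts (19.60 to 19.64%). On the length-corrected TPM scale they made up 6.77% of LT and 21.5% of CK. A lower scaled count in LT was found for 37924 genes of any abundance, of which the members are 0.200%. Adding up the drops in scaled counts over those 37924 genes, the 76 accounted for 41.9% of the sum. Choice by a high count and by a drop favours a large share of that sum, so nothing is read from it. The summed scaled count of the 76 had a log2 fold of -1.85, LT over CK. In a bulk leaf library, fewer cells of a type and less RNA per cell cannot be told apart.

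**Figure D1:**
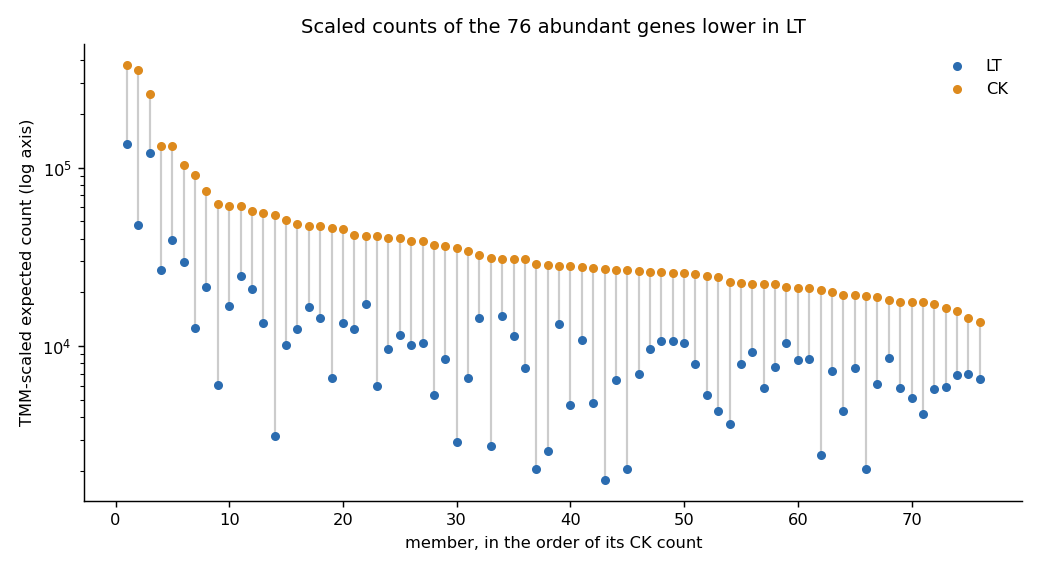
Scaled expected counts (vertical log axis) of the 76 genes in LT (blue) and CK (orange), ordered along the horizontal axis by CK count; grey lines join the values of 1 gene. The CK points descend from 377339 to 13747, and the LT points below them scatter between 1779 and 136055 without following that order closely.

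The gene numbered c32131.graph_c1, whose 5 isoforms averaged 914 bases in CK, was the most abundant gene of the whole CK library. It had 145679 counts in LT against 350647 in CK. Per length this was 11465 TPM in LT and 29254 TPM in CK, and the log2 fold of the scaled counts was -1.47 (-1.48 to -1.46). It still held place 3 of LT by scaled count, so it was a major transcript of both libraries.

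The second member by CK count, a sequence of 1296 bases with 2 isoforms, had 50855 counts in LT against 328540 in CK. Its log2 fold of -2.90 (-2.91 to -2.88) was deeper than that of the first, and it held place 13 in LT, against place 2 in CK. The third, a single sequence of 582 bases, had 130220 counts in LT against 240061 in CK, with a log2 fold of -1.09 (-1.10 to -1.08). Being short, the third gene stood first in both libraries per length, with 17270 TPM in LT and 33467 TPM in CK. The second thus had more counts than the third in CK and fewer in LT.

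Members with like CK counts also differed in LT further down the list. The fourth had 28503 counts in LT against 123214 in CK and was 4.98 times lower. The fifth, with almost the same CK count, had 41952 in LT against 122950 and was 3.38 times lower. The longest member, of 8204 bases, had 6509 counts in LT against 58122 in CK, and was 10.3 times lower. Its great length puts it only at place 180 of CK by TPM (51.3 TPM in LT and 494 TPM in CK), although it was place 11 by count.

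The deepest drop belonged to the gene numbered c37033.graph_c0, a gene of 27 isoforms. It had 3343 counts in LT against 50707 in CK, which is 17.5 times lower (296 TPM in LT, 4359 TPM in CK; log2 fold -4.13, -4.18 to -4.08). It was gene 918 of LT by scaled count and gene 17 of CK. Its abundance-weighted length was 821 bases in LT and 889 bases in CK, so the mixture of isoforms assigned to it also differed between the libraries.

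The drops varied widely among the 76 genes. There were 10 genes at least 8-fold lower in LT, 20 genes from 4- to below 8-fold lower and 46 genes from 2- to below 4-fold lower. Over all 171 abundant genes a drop of at least 8-fold made up 5.85% and one of at least 4-fold 17.5%, and over the 18742 genes compared these shares were 2.71% and 4.84%. The median log2 fold of the members was -1.79, against -0.76 over all abundant genes and 0.02 over all genes compared, and the members ranged from -4.13 to -1.04. For each of the 76 genes the whole counting interval lay below 0.5-fold, and the widest interval spanned 0.14 on the log2 scale. These intervals rest on the same counts that chose the genes and hold the scaling fixed, so nothing is read from this.

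The 10 genes with the deepest drops had 1905 to 6509 counts in LT, against 17857 to 58122 in CK. None of them was among the 8 members with the highest CK counts. After the gene of 27 isoforms, the next deepest was a single sequence of 1051 bases with 1905 counts in LT against 25054 in CK, or 15.1 times lower. It was followed by a gene of 3 isoforms with 2186 counts in LT against 26837 in CK, 14.1 times lower. The next, a single sequence of 1180 bases, had 2194 counts in LT against 24814 in CK, 13.0 times lower. These 3 genes lay between places 1692 and 2039 in LT, against places 53 to 64 in CK.

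The member nearest the fold limit had scaled counts of 10437 in LT and 21505 in CK, a fold of 0.485, and the nearest gene outside had 17132 and 33838, a fold of 0.506. The member nearest the abundance limit had a mean scaled count of 10137. The nearest gene outside it had a mean of 9779, from 1368 in LT and 18190 in CK, and its drop (log2 fold -3.73) was deeper than that of all but 3 members. The mean over both libraries leaves out such genes because a deep drop itself lowers the mean.

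**Figure D2:**
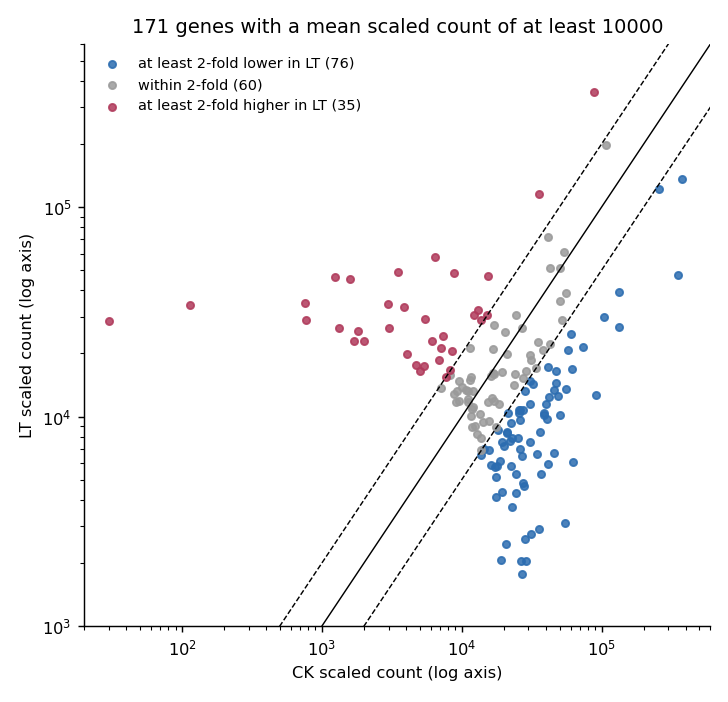
LT (vertical) against CK scaled counts (horizontal), both on log axes, for the 171 abundant genes; the solid line marks equality and the dashed lines a 2-fold difference. The 76 members (blue) lie below the lower dashed line, 60 genes (grey) between the lines and 35 genes (red) above, with LT counts of members reaching down to 1779 and CK counts of the higher genes down to 30.1.

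The members dominated the top of the control library more than that of the low-temperature library, which the choice of genes favours. They were 2 of the 10 most abundant genes of LT and 8 of the 10 most abundant of CK. Among the first 100 genes they were 16 in LT and 72 in CK. All 76 were within the first 122 places in CK, with a median place of 55.5, whereas in LT the median place was 219.5 and the lowest 2039. By TPM they were 2 of the first 10 in LT and 9 of the first 10 in CK, and among the first 100 they were 16 in LT and 53 in CK, fewer in CK than by count.

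Leaving the members out turned the order of the libraries in how concentrated the counts were. With all genes, 1276 genes made up 50% of the LT counts and 925 genes 50% of the CK counts. Without the 76 members it took 1413 genes in LT and 1614 in CK. The first 10 of the remaining genes held 6.36% of LT and 3.93% of CK. Because the members were chosen for a high CK count, their removal lowers the concentration of CK more by construction. Without all 171 abundant genes, higher ones included, the libraries were close, with 2030 genes in LT and 1989 in CK, and the first 10 held 1.21% and 1.12%.

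**Figure D3:**
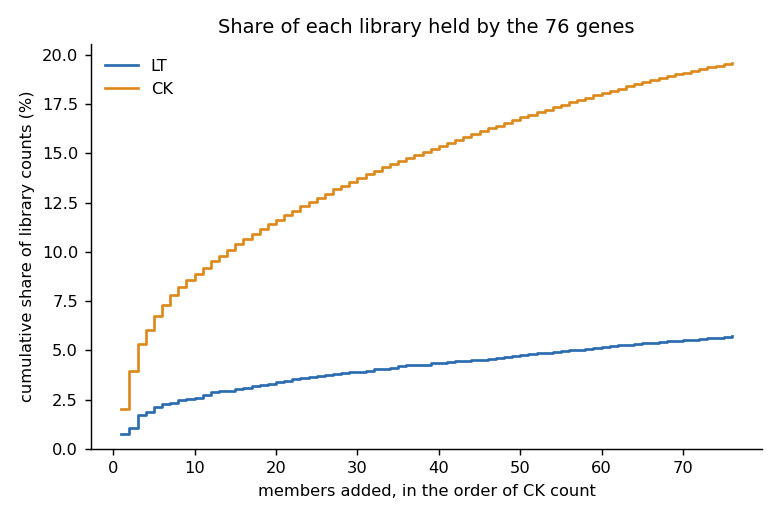
Share of all counts of the library (vertical axis, percent) held by the members as they are added in the order of CK count (horizontal axis), for LT (blue) and CK (orange). The curves end at 5.72% in LT and 19.6% in CK, and the first 10 genes already hold 2.60% of LT and 8.88% of CK.

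A minority of the members carried most of these counts, to about the same degree in both libraries. The first 3 genes by CK count held 30.3% of the members' LT counts and 27.2% of their CK counts, and the first 20 genes held 59.0% and 59.4%. Without the first 3, the other 73 genes still held 3.99% of LT and 14.3% of CK, and their summed log2 fold was -1.92. A low summed fold of any part of the group follows from the choice of its members.

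Choosing by abundance in 1 library alone shows how far the count of lowered genes depends on that step. Among the 160 genes with a scaled LT count of at least 10000, 31 (19.4%) had a 2-fold drop in LT or more and 73 (45.6%) a 2-fold excess or more. Among the 186 genes with a scaled CK count of at least 10000, 116 (62.4%) were lower and 7 (3.76%) higher. The mean of both libraries, which treats them alike, gave 76 lower and 35 higher genes (20.5%) of 171.

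The HL file offers a view of the upper end of the distribution under the other treatment, without any match between genes. Genes with at least 10000 unscaled counts numbered 176 in LT, against 172 in HL and 168 in CK. That is also the order of the library totals, 18836786 in LT, 17677087 in HL and 17223244 in CK. The HL assembly divided its counts over 83699 genes, against 74779 for LT and CK. They held 23.5% of the LT counts, 27.7% of the HL counts and 29.8% of the CK counts. How the 76 transcripts behaved under high light was not analysed here.

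Length and isoform number took no part in the choice. The members had a median length of 1548 bases (quartiles 1089 and 2251, range 338 to 8204, lengths in the CK file). The median was 1799 bases for the 60 abundant genes within 2-fold and 1877 bases for the 35 abundant genes that were higher. Members were 14 of the 29 abundant genes below 1000 bases (48.3%), 38 of 79 from 1000 to below 2000 (48.1%), 14 of 37 from 2000 to below 3000 (37.8%) and 10 of 26 of 3000 or more (38.5%). Genes of every length class were thus found in the group, beside 44.4% for all abundant genes.

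**Figure D4:**
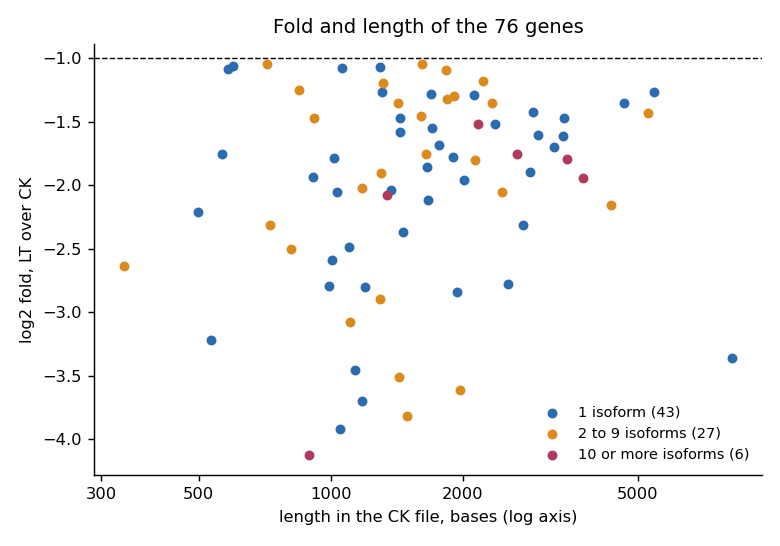
Log2 fold, LT over CK (vertical axis), against length in the CK file (horizontal log axis) for the 76 members, coloured by number of isoforms; the dashed line is the 2-fold limit. Drops beyond 8-fold occur among genes of 1 isoform and of many, from 532 to 8204 bases.

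A single isoform was recorded for 43 of the 76 members (56.6%). The share was 31.7% for the abundant genes within 2-fold, 48.6% for the higher ones and 40.8% for all genes compared. Read the other way, members made up 54.4% of the 79 abundant genes with 1 isoform, 40.7% of the 27 with 2, 35.6% of the 45 with 3 to 9 and 30.0% of the 20 with 10 or more. Genes are not replicates, so these shares carry no test, and nothing is called particular to the group from them. Within the group the median log2 fold was -1.78 for 43 genes with 1 isoform, -1.80 for 11 with 2, -1.61 for 16 with 3 to 9 and -1.87 for 6 with 10 or more.

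Isoform mixtures were compared through the abundance-weighted length of the 33 members with several isoforms. A difference of at least 5% between LT and CK was found in 7 of them (21.2%), longer in LT for 4 and shorter in LT for 3. The corresponding shares were 26.8% of 41 abundant genes within 2-fold, 33.3% of 18 higher genes and 26.4% of the 11100 multi-isoform genes compared. Such a length difference was thus found in a minority of members, a share no higher than in these other classes, and nothing is read from it about the drop. The most isoform-rich member, with 32 isoforms, averaged 2367 bases in LT and 2651 in CK.

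All 171 abundant genes, members included, had a fractional expected count in at least 1 library, against 53.1% of all genes compared. A gene with very many reads is likely to have such a count for that reason alone. Fractional counts usually arise where reads are divided among similar sequences, so for near-identical members of a gene family the division of reads between them is an estimate.

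Of the members, 12 share an assembly component with 14 other genes. A component was read from the gene number alone, as genes with the same number before the dot. How the assembler formed such groups, and whether their sequences are alike, is not given in the sources used here. Reads may be divided between these other genes and the member, which was not tested. Of the 14, 2 were abundant themselves, and their folds of 0.593 and 0.507 had kept them out of the group. The other 12 were too low to be chosen whatever their fold: it was below 1 for 10 of them and at most 0.5 for 4 (33.3%), and none was 2-fold higher in LT. With at least 50 counts there were 10 such genes, 3 of them 2-fold lower (30.0%) and 8 below 1 (80.0%). The same shares were 13.1% and 51.7% among 1782 genes of other components with several genes, and 14.0% and 48.9% among all genes compared.

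For 11 of the 14 genes the log2 fold was higher than that of the member, which the choice of members by a low fold favours. The most abundant of these partner genes had 19879 counts in LT against 29108 in CK, a fold of 0.593 (0.582 to 0.604), beside a member that was 3.62 times lower. Another had 638 counts in LT against 681 in CK, a fold of 0.813, beside a member 13.0 times lower. Only 2 partners had a fold above 1. A gene with 4415 counts in LT against 2529 in CK, whose fold was 1.51 (1.44 to 1.59), stood beside a member with a log2 fold of -2.02. The other had 1762 counts in LT against 1258 in CK, a fold of 1.22. Genes with the same component number could therefore differ in direction between the libraries. In the opposite sense, the component with 3 partners held a gene at 152 counts in LT against 881 in CK, whose fold of 0.151 was lower than its member's.

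**Figure D5:**
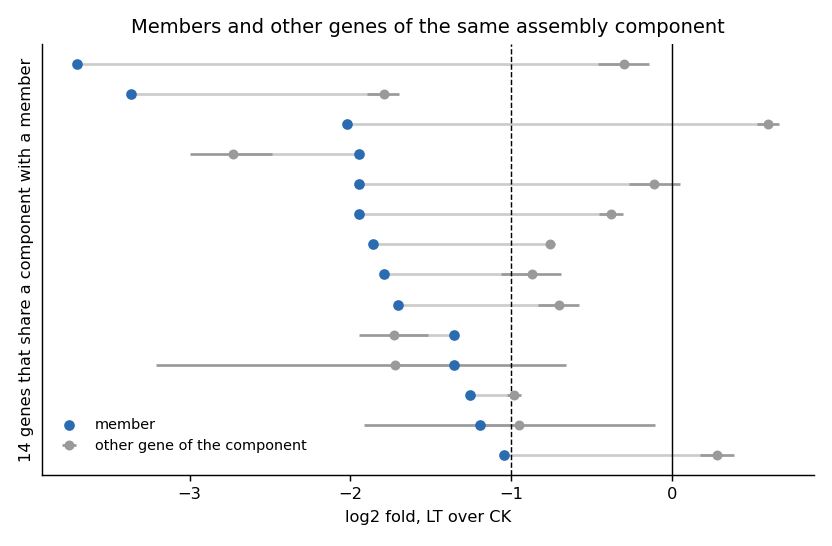
Log2 fold, LT over CK (horizontal axis), of 14 genes (grey, with counting intervals) and of the member in the same assembly component (blue), 1 line per gene; the solid line marks no difference and the dashed line a 2-fold drop. Grey points lie left of the solid line for 12 of the 14 genes and left of the dashed line for 4.

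The numbers of the members, like those of the abundant genes as a whole, were not spread evenly over the assembly. The 100 consecutive numbers with the most members contained 17, from 39591 to 39657, a window picked after the values were seen. It was then cut to end at its last member. Of the 69 genes in that stretch, 68 had 1 isoform and 26 were abundant, and 17 of those 26 (65.4%) were members and 6 (23.1%) were higher in LT. Outside it, members were 59 of 145 abundant genes (40.7%). Both the pick and the cut of the window raise the share inside it by construction, so nothing is read from that difference. Among the members, 16 of the 17 in the stretch had 1 isoform, against 27 of the 59 elsewhere (45.8%). The stretch thus raised the share for the whole group to 56.6%, although most members with 1 isoform lay outside it. The 17 genes held 1.67% of LT and 5.65% of CK, and their median log2 fold of -1.75 was close to the -1.79 of the other 59. Numbers are the assembler's and give no position in a genome, and no abundant gene had a number above 39672, although numbers ran to 80063.

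On the TPM scale, which rests on the same libraries, every member was also lower in LT, with log2 folds of -0.92 or below. The median over the 76 was -1.67, while the median of all genes compared was 0.13 on this scale against 0.02 for scaled counts, a shift of similar size. Of the 76, 69 stayed at least 2-fold lower by TPM. The 7 that did not had log2 folds of -1.09 to -1.04 by count and of -0.98 to -0.92 by TPM, and thus lay next to the limit.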

How the data were processed

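Per the labels' protocols, poly-A RNA was purified from leaf RNA and made into libraries for Illumina sequencing (NEBNext Ultra kit). The expected counts, TPM and FPKM values per assembled gene were computed and deposited by the authors, per the file headers. Which assembler and quantifier made them is not given in the sources used here. LT and CK listed the same 74779 genes with identical isoform lists and were joined by gene number, and HL was not joined. Expected counts were rounded, and effective library sizes were computed on LT and CK by TMM (edgeR 4.0.16 under R 4.3.3). Each count was then brought to the mean effective size, and 1 was added before folds were taken. For TPM and FPKM 0.1 was added. With 1 library per group no test was run. Exact conditional binomial (folds) and Clopper-Pearson (shares) 95% intervals cover counting error only, and reads were not collapsed by molecular identifiers. The members given by number are the one with the highest CK count and the one with the deepest drop. Members, lists and limits were chosen with earlier results of these data known, and planned lists of named genes and markers could not be applied. The fold step was tested on simulated data with counting error only, equal numbers of raised and lowered genes, and a lower abundance limit. That test does not cover the spread between plants or the division of reads between similar sequences. Alternatives were other scalings (DESeq2 1.42.0 size factors among them), limits, added counts, isoform and length classes. The other steps ran in Python 3.11.15 (pandas 2.3.3, numpy 2.4.6, scipy 1.17.1; figures in matplotlib 3.10.9).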

Additional observations from a re-analysis of the deposited data

How the results depend on the processing

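No replicate could be left out, and no paired analysis was possible because each condition had 1 library. The number of members, 76, was within 1.5 times under 13 of 19 alternatives. It was 149 and 34 at mean counts of at least 5000 and 20000, 116 and 31 when the CK or the LT count alone had to reach 10000, 30 at a 4-fold limit and 43 for genes of 1 isoform. These follow from widening or narrowing the choice. All 76 genes remained under the TMM variants, other added counts, the upper quartile and the interval limit. The interval limit rests on the same counts that chose the genes. With the total count 5 were lost, with DESeq2 size factors 2, and with TPM or FPKM folds 7.

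The median log2 fold was -1.75 with DESeq2 size factors, -1.87 with the upper quartile, -1.59 and -1.83 at mean counts of 5000 and 20000, -1.70 for the LT count alone, and -1.61, -1.99 and -2.71 at limits of 1.5-, 2.5- and 4-fold. The share held in LT and in CK was 5.63% and 19.4% with DESeq2 size factors, 5.46% and 19.1% with the total count, 6.05% and 20.3% with the upper quartile, 4.69% and 17.5% with TPM folds and 4.79% and 17.7% with FPKM folds. At mean counts of 5000 and 20000 it was 7.10% and 23.7%, and 4.24% and 14.4%. Chosen by CK alone it was 6.50% and 22.2%, and by LT alone 4.24% and 13.2%. At limits of 1.5-, 2.5- and 4-fold it was 7.14% and 22.0%, 4.05% and 16.1%, and 1.29% and 7.96%. Genes of 1 isoform held 2.84% and 9.31%, and genes of at least 500 bases 5.67% and 19.4%. The share was lower in LT in each of these settings, which the choice of genes fixes. Depth was not the limit for genes of this abundance: counting error was small beside the folds, and the spread between plants was not measured.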
